A study of Homo sapiens with 4 samples.

Results

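Cell junction and cytoskeleton genes were examined for APC ChIP-seq peaks in HCT-116, an established human colon carcinoma cell line. The 38 genes were fixed by name and form 3 groups. There were 16 junction genes (adherens junctions, tight junctions and desmosomes), 17 actin-linker genes (focal adhesion proteins, actin cross-linkers, motors and tropomyosins) and 5 keratin genes (4 keratins and the keratin linker PLEC). A peak was a member when the gene name that the authors gave it, by nearest transcription start site (TSS) at any distance, was on the list. This gave 23 of 6263 peaks in replicate 1 and 23 of 8393 peaks in replicate 2.

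The 4 libraries of the series were 2 APC ChIPs, each a biological replicate, and 2 inputs. All came from the same line, labelled APC wild-type and CTNNB1ΔSer45, a degradation-resistant β-catenin that keeps canonical WNT signaling on. Cells were fixed with 1% formaldehyde for 10 min at 24 h after seeding, and the ChIP antibody was a polyclonal against the C-terminal 50 residues of APC. The methods of the study state that the replicates were prepared months apart, so replicate and date cannot be told apart. No ChIP from cells without APC or with another antibody was analysed here, nor was any file of the inputs. Peak lists hold no read counts, enrichment or expression, so depth was unknown, cell identity could not be checked from them, and the only size of a peak was its width.

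Junctions hold epithelial cells together. In adherens junctions a cadherin binds β-catenin, and α-catenin and vinculin tie the complex to actin, so that the same β-catenin that activates WNT targets is also a junction protein. Tight junctions are built of claudins and occludin on a scaffold of ZO proteins, and desmosomes anchor keratin filaments, which in simple intestinal epithelium are made mainly of KRT8, KRT18, KRT19 and KRT20. APC itself is known to bind microtubules and actin regulators at the cell cortex, besides its part in the degradation of β-catenin.

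Of the 38 genes, 20 had at least 1 assigned peak in either replicate (52.6%, exact 95% CI 35.8 to 69.0) and 18 had none. Over all protein-coding genes 25.7% had one. A peak was assigned in replicate 1 to 14 genes (36.8%, exact 95% CI 21.8 to 54.0) and in replicate 2 to 16 genes (42.1%, 26.3 to 59.2). Among 19254 protein-coding genes the shares were 17.1% and 20.5%. A region was called shared when peak centres of the replicates lay under 400 bp apart. The study set the same limit between summits, which the peak lists do not hold. Shared regions were assigned to 9 members (23.7%, 11.4 to 40.2), against 11.4% of protein-coding genes. These were CLDN3, CLDN7 and TJP1 among junction genes, CTTN and MYH9 among actin-linker genes, and KRT8, KRT18, KRT20 and PLEC among keratin genes. The count fell to 4 members in the wider 50% of each list and to 4 within 10 kb of the TSS, where the shares over all protein-coding genes were 6.40% and 7.76%. The genes were listed by what they encode, but with earlier results of these data known. They were longer than most, with a median length of 54.1 kb against 27.4 kb for all protein-coding genes. The parts of this choice and of length in the difference were not tested, and no test of the difference itself was made.

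**Figure D1:**
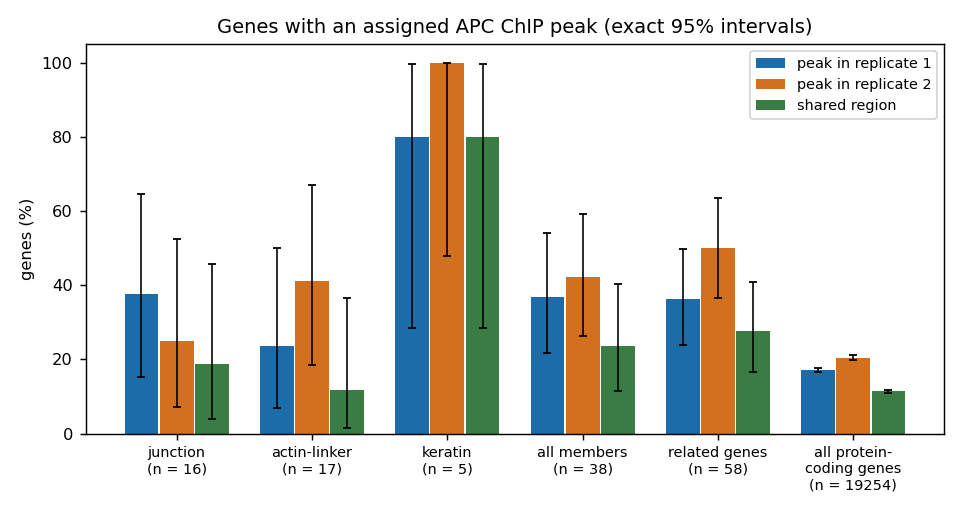
Share of genes (y axis, percent) with an assigned APC ChIP peak in replicate 1, in replicate 2, and with a shared region, for the 3 groups, all 38 members, 58 related genes and 19254 protein-coding genes; error bars are exact 95% intervals over genes. Keratin genes stand at 80%, 100% and 80% with wide intervals from 5 genes, and junction and actin-linker genes lie below them.

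The groups differed in how many of their genes were reached. All 5 keratin genes had a peak, and 4 of 5 had a shared region (80%, exact 95% CI 28.4 to 99.5). In the junction group 7 of 16 had a peak and 3 of 16 a shared region (18.8%, 4.05 to 45.6). In the actin-linker group 8 of 17 had a peak and 2 of 17 a shared region (11.8%, 1.46 to 36.4). Over all protein-coding genes 25.7% had a peak in either replicate and 11.4% a shared region. The 11.4% lay inside the intervals of the junction and actin-linker groups, near the actin-linker share, and below the interval of the keratin genes. The interval of the keratin genes overlapped both others. These intervals treat genes as independent, which KRT8 and KRT18, adjacent on chromosome 12, are not. Within the junction group, 3 of 7 tight junction genes, 0 of 4 adherens junction genes and 0 of 5 desmosome genes had a shared region. A count of 0 of 5 genes allows a share of up to 52.2% and 0 of 4 up to 60.2% (exact 95% CI).

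Both replicates had a peak at 10 members (26.3%, exact 95% CI 13.4 to 43.1), compared with 11.9% of all protein-coding genes. Replicate 1 alone had a peak at CDH1, CLDN4, MYO1E and OCLN, and replicate 2 alone at ACTN4, CTNND1, KRT19, LIMA1, LPP and PXN. So 4 of 14 replicate 1 genes (28.6%, exact 95% CI 8.39 to 58.1) and 6 of 16 replicate 2 genes (37.5%, 15.2 to 64.6) lacked a peak in the other replicate, near the 1006 of 3293 and 1658 of 3945 over all protein-coding genes with a peak. Junction genes had 8 peaks in replicate 1 and 5 in replicate 2, actin-linker genes 5 and 8, and keratin genes 10 and 10. Of 10 focal adhesion and cross-linker genes, 1 had a peak in replicate 1 and 5 in replicate 2, and 0 had a shared region, which allows a share of up to 30.8%. Of the member peaks, 12 of 23 were shared in replicate 1 (52.2%, 30.6 to 73.2) and 11 of 23 in replicate 2 (47.8%, 26.8 to 69.4). Over all peaks the shares were 63.6% and 45.5%, both inside the intervals of the members. With both lists cut to their wider 50%, 5 of 17 replicate 2 member peaks were shared (29.4%), compared with 50.9% of all peaks. In that setting the replicate 1 partner had to be in the wider 50% of its own list too.

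**Figure D2:**
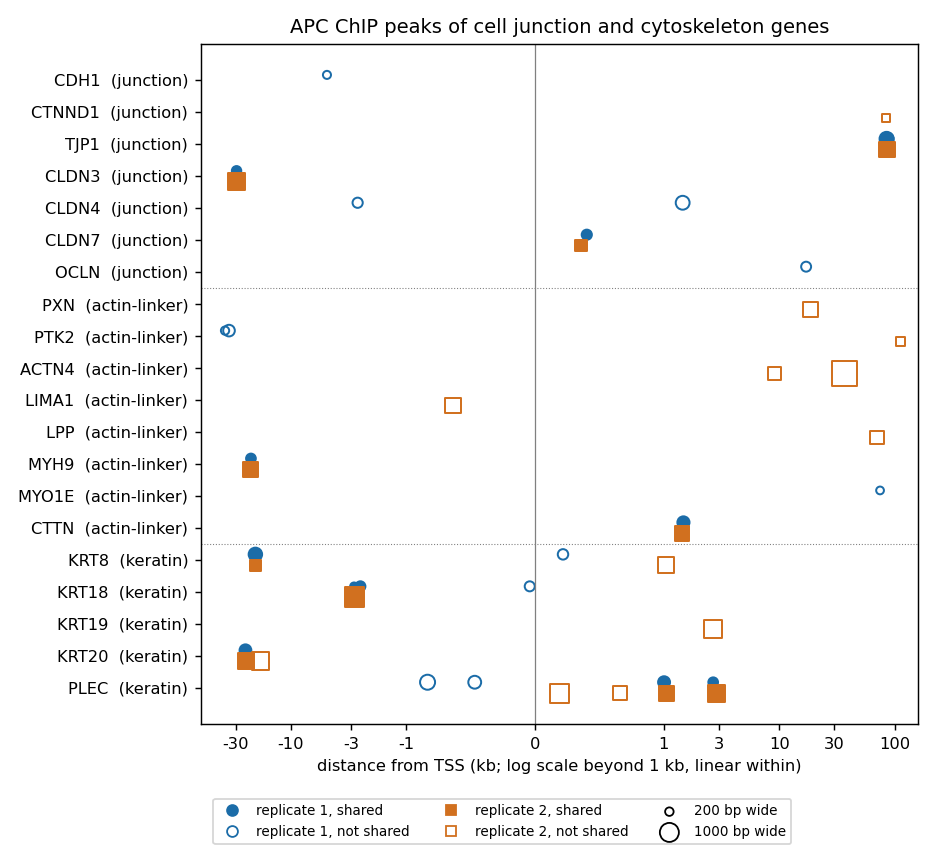
Distance of each member peak from the TSS it was assigned to (x axis, kb, linear within 1 kb and logarithmic beyond), for the 20 members with a peak, by replicate; filled symbols are shared, open symbols are not, and symbol area follows peak width. Shared peaks are seen at 9 genes, from 29453 bp upstream at CLDN3 to 86252 bp downstream at TJP1, and every peak within 300 bp of a TSS is open.

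TJP1 encodes ZO-1, the scaffold that links claudins and occludin to actin. It had 2 shared regions in intron 12, with centres 1510 bp apart in replicate 1. The first was 434 bp wide in replicate 1 (chr15:30027283-30027715, hg19) and 639 bp in replicate 2 (chr15:30027267-30027904), and the second was 536 bp (chr15:30028742-30029276) and 609 bp (chr15:30028682-30029289). Both were wider than the median peak in each replicate and agreed closely in position, with centres 86.5 and 23.5 bp apart. They lay deep in the gene, 86252 and 84742 bp from the RefGene TSS in replicate 1. The annotation placed the second in an LTR retroelement (LTR87) in both replicates.

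Claudins are the transmembrane strands of the tight junction. CLDN7 had 1 shared region near its TSS, 285 bp wide in replicate 1 (chr17:7165720-7166003) and 336 bp in replicate 2 (chr17:7165739-7166073), with centres 403 and 358 bp downstream of the start in the 5' UTR. Both peaks were narrower than the median of their replicate. The region assigned to CLDN3 was 246 bp wide in replicate 1 (chr7:73213931-73214175) and 777 bp in replicate 2 (chr7:73213512-73214287), and lay 29453 and 29299 bp upstream of CLDN3. It lies between CLDN3 and CLDN4. The GENCODE 44 gene model of CLDN4 starts at 73213872, which is inside the replicate 2 peak and 59 bp before the replicate 1 peak, whereas RefGene starts CLDN4 farther on. By that model the region falls within CLDN4, so that its assignment to CLDN3 depends on the annotation. CLDN4 itself had 2 peaks in replicate 1, of 287 bp (chr7:73242407-73242692, 2644 bp upstream by RefGene) and 529 bp (chr7:73246394-73246921, in the 3' UTR), and 0 in replicate 2. By GENCODE the 287 bp peak lay within CLDN4, centred 46 bp downstream of another of its starts.

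The other junction genes with a peak had it in 1 replicate only. CDH1, the E-cadherin gene, had a replicate 1 peak of 179 bp (chr16:68766237-68766414) 4870 bp upstream of its start, and the nearest replicate 2 centre was 189347.5 bp away. OCLN, the occludin gene, had a replicate 1 peak of 273 bp in intron 4 (chr5:68816968-68817239) in a LINE element. CTNND1, which encodes p120-catenin, a protein that keeps cadherins at the membrane, had a replicate 2 peak of 162 bp (chr11:57612954-57613114) 83800 bp away in an Alu element. These 3 peaks were narrower than the median of their replicate. No peak was assigned to CDH3 (P-cadherin), CTNNA1 (α-catenin), CLDN1, F11R (the junctional adhesion molecule JAM-A) or any of the 5 desmosome genes DSP, DSG2, DSC2, JUP and PKP2. Some of these are long, with 324 kb for CTNNA1 and 106 kb for PKP2. Without read counts, a gene with no peak cannot be told from one with a signal under the calling threshold.

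Words of both AP-1 and TCF were matched together in 3 of the 12 shared replicate 1 peaks of the members (25.0%, exact 95% CI 5.49 to 57.2), at CLDN3, TJP1 and KRT18, and in 16.4% of all 3984 shared regions, which lies inside that interval. The word searched for AP-1, in which FOS and JUN proteins pair, was TGACTCA, and those for the TCF factors, which bring β-catenin to DNA, were the word AACAAAG, the word ATCAAAG, the word TACAAAG and the word TTCAAAG, on both strands. The CLDN3 region held 1 match of each, and the second TJP1 region held 1 AP-1 and 2 TCF matches in the 300 bp around its centre. The CLDN7 region, with 2 matches of the SP1 word GGGCGG, is not shown because it overlaps a UTR. The hg19 plus strand of the junction regions reads as follows, with all matches in capitals.
CLDN3 region upstream, chr7:73213931-73214175: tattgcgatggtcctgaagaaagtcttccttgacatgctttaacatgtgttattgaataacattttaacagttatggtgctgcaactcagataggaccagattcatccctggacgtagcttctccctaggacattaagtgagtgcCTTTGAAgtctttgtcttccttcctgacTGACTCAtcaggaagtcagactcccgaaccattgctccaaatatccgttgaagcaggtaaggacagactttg
TJP1 second region in intron 12, chr15:30028859-30029158: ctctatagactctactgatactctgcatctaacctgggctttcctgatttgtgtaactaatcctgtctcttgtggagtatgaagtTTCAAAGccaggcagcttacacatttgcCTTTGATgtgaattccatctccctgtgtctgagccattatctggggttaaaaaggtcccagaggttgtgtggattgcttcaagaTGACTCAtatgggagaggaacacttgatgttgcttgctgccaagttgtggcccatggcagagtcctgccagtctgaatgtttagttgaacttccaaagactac

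Among actin-linker genes, CTTN and MYH9 had shared regions. CTTN encodes cortactin, which binds and stabilizes branched actin. Its region in intron 1 was 406 bp wide in replicate 1 (chr11:70245897-70246301) and 612 bp in replicate 2 (chr11:70245753-70246363), both wider than the median, with centres 1487 and 1446 bp downstream of the TSS. The 300 bp around the centre held 2 AP-1 matches and 1 match of the USF word CACGTG, and no TCF match. MYH9 encodes the heavy chain of non-muscle myosin IIA. Its region was 261 bp wide in replicate 1 (chr22:36806050-36806309) and 593 bp in replicate 2 (chr22:36806099-36806690) and lay 22116 and 22331 bp upstream in a CpG island, with 211 bp of overlap. It held 1 SP1 match in the replicate 1 peak and 0 in the replicate 2 peak, which begins past the match. The 2 regions differ in composition, with a GC content around the centre of 55.3% at CTTN and 63.7% at MYH9. Matches are in capitals.
CTTN region in intron 1, chr11:70245949-70246248: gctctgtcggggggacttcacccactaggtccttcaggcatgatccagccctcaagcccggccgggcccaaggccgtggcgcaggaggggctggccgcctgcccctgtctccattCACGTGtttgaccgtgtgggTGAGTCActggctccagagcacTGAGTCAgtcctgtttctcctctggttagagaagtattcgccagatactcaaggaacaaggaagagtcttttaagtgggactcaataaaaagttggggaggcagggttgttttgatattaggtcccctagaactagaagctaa
MYH9 region upstream, chr22:36806050-36806309: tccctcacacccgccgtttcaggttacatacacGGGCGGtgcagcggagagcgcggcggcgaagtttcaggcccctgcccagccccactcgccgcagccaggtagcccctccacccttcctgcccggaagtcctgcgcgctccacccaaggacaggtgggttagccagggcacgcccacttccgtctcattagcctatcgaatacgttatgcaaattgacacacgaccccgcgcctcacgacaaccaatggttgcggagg

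The remaining actin-linker peaks were found in 1 replicate. ACTN4, which encodes the actin cross-linker α-actinin-4, had the widest of all member peaks, 1706 bp in replicate 2 (chr19:39173963-39175667), in intron 1 and 36548 bp from the TSS. It ranked 108 of 8393 by width and was wider than 98.7% of the list, and yet the nearest replicate 1 centre was 167810 bp away. A second ACTN4 peak of 459 bp lay in the same intron (chr19:39147125-39147582), also in replicate 2 alone. Other replicate 2 peaks were found at LIMA1, an actin bundling protein gene (671 bp, chr12:50595619-50596288, 637 bp upstream of a start), PXN, the paxillin gene (662 bp, chr12:120669035-120669695, intron 1) and LPP, a zyxin relative (518 bp, chr3:188012649-188013165, intron 2). MYO1E, a class I myosin gene, had a replicate 1 peak of 166 bp (chr15:59590492-59590656, intron 1). PTK2, the gene of focal adhesion kinase, had 2 replicate 1 peaks of 373 and 189 bp upstream (chr8:142045451-142045822 and chr8:142048357-142048544) and 1 replicate 2 peak of 222 bp in intron 3 (chr8:141898308-141898528), with centres 147218.5 bp apart at the closest.

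No peak was assigned to VCL (vinculin), ZYX (zyxin), TLN1 (talin), ACTN1, FLNA (filamin A), TPM1 and TPM4 (tropomyosins), MSN (moesin) or ANLN (anillin). They ran from 9.82 kb (ZYX) to 154 kb (MSN) in length, with 126 kb for VCL. VCL, TPM1 and FLNA are known targets of SRF, whose binding site is the CArG box. No CArG box was matched in any of the 12 shared replicate 1 peaks of the members (up to 26.5%, exact 95% CI), and it was matched in 2.13% of all shared regions, so few matches could be seen in so small a set.

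Assignment by nearest TSS hid peaks that lay inside members. A shared region in intron 2 of LIMA1 (542 bp, chr12:50640842-50641382 in replicate 1, and 752 bp, chr12:50640804-50641554 in replicate 2) was assigned to MIR1293. A shared region in intron 1 of MYO1E (156 bp, chr15:59568999-59569153, and 629 bp, chr15:59568733-59569360) was assigned to LDHAL6B. Peaks in replicate 2 alone within MYO1E (440 bp) and LPP (286 bp) were assigned to LDHAL6B and LPP-AS1. When peaks over the gene body or up to 5 kb upstream of it were counted in place of the assigned name, 9 members again had a shared region, but 3 of these were others: CLDN4, LIMA1 and MYO1E came in and CLDN3, KRT20 and MYH9 were lost. In that count the actin-linker group had 3 of 17, the junction group 3 of 16 and the keratin group 3 of 5. KRT8 and KRT18 entered it by the same shared peaks, those assigned to KRT18. The count by gene body was not made over all protein-coding genes, so these numbers have no share to stand beside. Longer genes can hold more peaks, and the part of length was not tested.

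KRT8 and KRT18 encode the obligate keratin pair of simple epithelia and lie side by side. Their 8 peaks spanned 45.3 kb. The widest, a replicate 2 peak of 1078 bp (chr12:53339298-53340374) wider than 93.9% of its list, was assigned to KRT18 and lay 2819 bp upstream of it, in intron 1 of a longer KRT8 transcript. Replicate 1 had 2 peaks inside it, of 165 bp (chr12:53339732-53339895) and 282 bp (chr12:53340010-53340290), so 1 broad peak in one replicate was matched by a pair of narrow ones in the other. Another KRT18 peak, of 277 bp, covered the KRT18 promoter in replicate 1 alone (chr12:53342477-53342752), centred 41 bp before the TSS, and the nearest replicate 2 centre 2778.5 bp away. KRT8 had a shared intergenic region upstream, 500 bp in replicate 1 (chr12:53363649-53364147) and 346 bp in replicate 2 (chr12:53363518-53363862), with 214 bp of overlap. It was the one of the 12 shared pairs in which the replicate 1 peak was the wider. Near an inner KRT8 start, a replicate 1 peak of 302 bp (chr12:53319885-53320185) and a replicate 2 peak of 734 bp (chr12:53318843-53319575) were separated by 309 bp and were not shared.

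The regions between and beyond this pair carried TCF words. The KRT18 region of 282 bp held 1 AP-1 and 2 TCF matches, and the KRT8 upstream region held 3 TCF matches and 2 matches of the TEAD word GGAATG in the 300 bp around its centre, and no AP-1 match. The narrower KRT18 region held 1 TEAD match and neither of the others. The plus strand of hg19 is shown with matches in capitals.
KRT18 region upstream, chr12:53340010-53340290: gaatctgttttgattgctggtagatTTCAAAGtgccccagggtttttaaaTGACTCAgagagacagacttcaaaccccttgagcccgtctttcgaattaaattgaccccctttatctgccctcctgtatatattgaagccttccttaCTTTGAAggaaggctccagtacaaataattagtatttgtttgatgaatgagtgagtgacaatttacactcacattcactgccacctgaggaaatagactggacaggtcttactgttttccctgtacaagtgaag
KRT8 region upstream, chr12:53363748-53364047: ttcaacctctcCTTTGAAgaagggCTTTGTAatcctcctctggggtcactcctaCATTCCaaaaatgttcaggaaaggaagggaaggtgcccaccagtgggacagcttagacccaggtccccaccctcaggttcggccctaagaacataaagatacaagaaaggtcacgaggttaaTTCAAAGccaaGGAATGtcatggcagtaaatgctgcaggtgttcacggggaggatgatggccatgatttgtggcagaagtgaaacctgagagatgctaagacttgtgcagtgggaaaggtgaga

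KRT20, a marker of differentiated colon epithelium, had a shared region 24674 bp upstream in replicate 1 (383 bp, chr17:39065979-39066360) and 24446 bp in replicate 2 (676 bp, chr17:39065604-39066278). The overlap was 300 bp and the centres were 228.5 bp apart. The replicate 1 peak held none of the 7 motifs searched, and the replicate 2 peak held 1 AP-1 match and 1 match of the word AACNGGTT, bound by GRHL factors that control epithelial junction genes. A second replicate 2 peak of 872 bp (chr17:39059374-39060244) lay 18314 bp upstream and its nearest replicate 1 centre was 6360.5 bp away. KRT19 had a single peak, in replicate 2 alone. It was 912 bp wide, ranked 901 of 8393, and lay in intron 1 by RefGene (chr17:39681486-39682396), while the nearest replicate 1 centre was 96989 bp away. By GENCODE its centre lay 244 bp upstream of another KRT19 start, and the peak overlapped annotated UTR and coding sequence.

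PLEC encodes plectin, the large linker that ties keratin filaments to actin and to hemidesmosomes, and is known for its alternative first exons. It had the most peaks of any member, with 4 in each replicate. Shared regions lay in intron 2 of one transcript, 1011 bp from an inner start (394 bp, chr8:145023837-145024229 in replicate 1, and 635 bp, chr8:145023661-145024294 in replicate 2), and in intron 5 of another (259 bp, chr8:145010942-145011199, and 791 bp, chr8:145010483-145011272). The other 4 peaks were each in 1 replicate and lay at promoters or a first exon. In replicate 1 these were a 622 bp peak 836 bp upstream of one start (chr8:145014284-145014904) and a 455 bp peak 469 bp upstream of the outermost start (chr8:145051156-145051609), the latter overlapping the end of the neighboring PARP10 gene model that faces PLEC. In replicate 2 they were a 554 bp peak 661 bp downstream of another start (chr8:145017189-145017741) and a 988 bp peak over an exon 1 (chr8:145024361-145025347), which was separated by 66 bp from a shared replicate 2 peak. So the replicates had promoter peaks at different PLEC starts and shared peaks that RefGene labelled as intronic. The intron 5 peaks of both replicates also overlapped coding sequence by GENCODE.

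**Figure D3:**
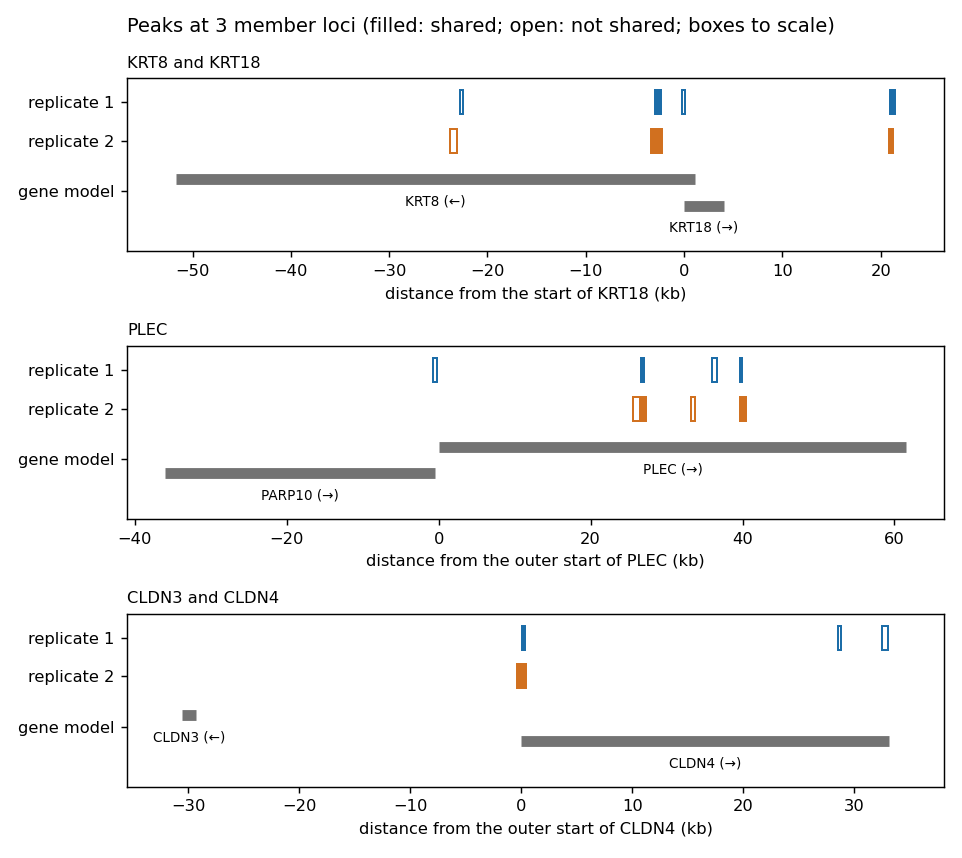
Peaks of each replicate at KRT8 and KRT18, at PLEC, and at CLDN3 and CLDN4, drawn to scale along the distance in kb (x axis) from the start of KRT18, the outer start of PLEC and the outer start of CLDN4, with GENCODE 44 gene models in grey and arrows for the direction of transcription. Filled boxes are shared and open boxes are not; the shared CLDN3 region stands at the outer start of CLDN4, 59 bp inside it in replicate 1.

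By the RefGene annotation of the authors, no shared member region was labelled as a promoter. Of 12 shared replicate 1 peaks, 7 were annotated in introns, 4 between genes, 1 in a 5' UTR and 0 in a promoter (up to 26.5%, exact 95% CI). Over all 3984 shared regions the promoter share was 30.5% and the intron share 31.3%. The members did have promoter peaks, 5 in the lists together at KRT18, LIMA1 and PLEC, and none of these 5 was shared, 0 of 3 in replicate 1 (up to 70.8%) and 0 of 2 in replicate 2 (up to 84.2%). Over all promoter peaks 64.7% and 57.1% were shared, which these small counts cannot be told from. The label depends on the annotation, since the shared CLDN7 peaks were centred 64 and 109 bp upstream of a GENCODE start and the shared CLDN3 region lay at the outer GENCODE start of CLDN4. The count of promoter labels stayed at 0 with a limit of 1000 bp. By distance, 6 of the 12 (50%, 21.1 to 78.9) were no farther than 5 kb from a TSS, compared with 44.4% over all shared regions. Several of the 12 share a locus, 2 each at TJP1, KRT18 and PLEC, so these counts rest on few genes.

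Of the 23 unshared member peaks in both lists, 3 had a centre of the other replicate under 1000 bp away, at KRT8 (826 bp, counted once from each side) and PLEC (821 bp), and for 16 the nearest centre was more than 10 kb away. By replicate the near ones were 1 of 11 and 2 of 12, compared with 8.82% and 4.72% of all unshared peaks, and the far ones 8 of 11 and 8 of 12, compared with 73.5% and 73.6%. All of these lay inside the exact 95% intervals of the members. No member peak lay in a satellite repeat.

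The median member peak was narrower than that of the whole list in replicate 1 and wider in replicate 2. In replicate 1 their widths ran from 165 to 622 bp with a median of 287 bp, against 371 bp for all peaks, and 10 of 23 were at or above the middle of the list. In replicate 2 they ran from 162 to 1706 bp with a median of 639 bp, against 532 bp, and 17 of 23 were in the wider part. The medians were 286, 261 and 342.5 bp for junction, actin-linker and keratin peaks in replicate 1, and 609, 602.5 and 762.5 bp in replicate 2. The keratin median was thus the widest in both, with 4 of the 10 keratin peaks of each replicate from PLEC. Among shared peaks alone the medians were 359.5, 333.5 and 332.5 bp in replicate 1, where the keratin median was the narrowest. They were 624, 602.5 and 676 bp in replicate 2. Of the 10 keratin peaks in replicate 2, 9 were in the wider part of the list. For 11 of the 12 shared pairs the replicate 2 peak was the wider, as for 90.4% of all shared regions. The median width ratio of replicate 2 to replicate 1 was 1.69 (0.692 to 6.53), compared with 1.51 over all shared regions. Their centres were a median of 120 bp apart, compared with 64.5 bp for all shared regions. Depth was unknown, and its part in these differences was not tested.

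**Figure D4:**
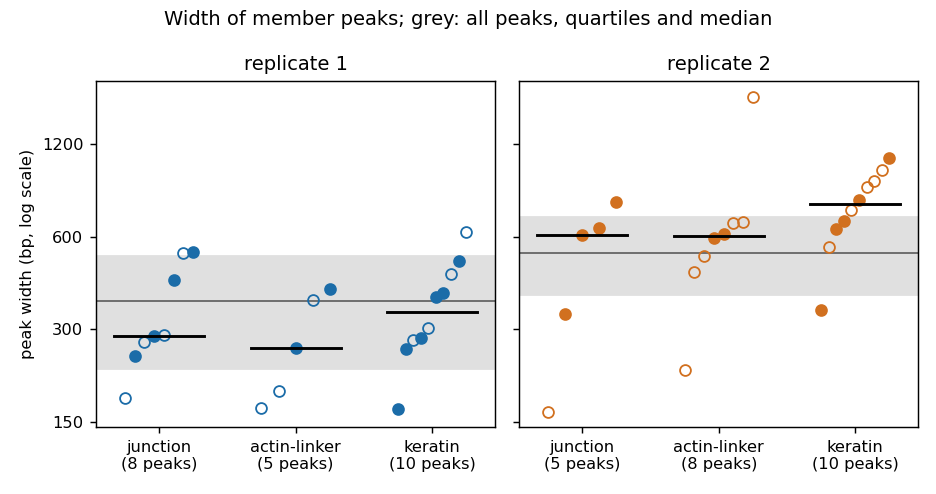
Width in bp (y axis, log scale) of each member peak by group for replicate 1 (left) and replicate 2 (right); filled points are shared, open points are not, black bars are group medians, and the grey band and line are the quartiles and median of all peaks of that replicate. In replicate 1 all 3 medians lie below the grey line at 371 bp, and in replicate 2 all 3 lie above the line at 532 bp.

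Sequence words of the shared member regions were set beside those of all shared regions. An AP-1 match was found in 5 of 12 replicate 1 peaks (41.7%, 15.2 to 72.3) and in 32.9% of all 3984. In windows of 300 bp, equal in length for both, the shares were 41.7% and 30.4%, and in the wider replicate 2 peaks 63.6% and 38.8%. The 5 peaks with AP-1 were those of CLDN3, CTTN, KRT18 and both of TJP1. TCF words were matched in 4 of 12 (33.3%, 9.92 to 65.1), at CLDN3, KRT8, KRT18 and TJP1, against 33.4% of all. SP1 was matched in 2 of 12 and in 36.8% of all, TEAD in 2 of 12 and in 1035 of 3984, USF in 2 of 12 and 20.2%, and the GRHL word in 0 of 12 and 2.76%. All of these shares over all regions lay inside the intervals of the members. Both PLEC regions of replicate 1 and that of KRT20 held no match. The GC content around the centre had a median of 52.2% in the 12 and 52.3% in all shared regions, but ran from 39.3% at KRT18 to 70.3% at CLDN7 and PLEC.

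**Figure D5:**
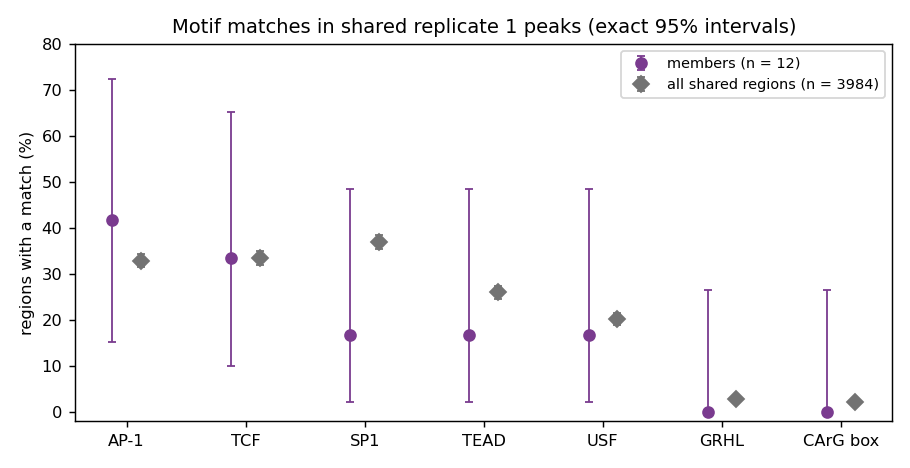
Share of shared replicate 1 peaks with at least 1 match (y axis, percent) for each of 7 motifs, for the 12 member regions (circles) and all 3984 shared regions (diamonds); bars are exact 95% intervals over regions. The member intervals are wide and hold the value of all shared regions for every motif, from AP-1 (41.7% and 32.9%) to the CArG box (0% and 2.13%).

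Related genes that were not members were taken from a list of 58 junction, actin and keratin genes chosen by function. That list too was made with earlier results of these data known. A peak was assigned to 33 of them in either replicate (56.9%), compared with 25.7% of all protein-coding genes. A shared region was assigned to 16 (27.6%, 16.7 to 40.9), close to the 23.7% of the members, compared with 11.4% of all protein-coding genes. The junction part had 7 of 25, among them the tight junction scaffold gene TJP3, CLDN2, MARVELD2 (tricellulin), the polarity gene PARD3 with 2, and the plakins PPL with 2 and EVPL. Those of TJP3 and CLDN2 lay at promoters, 278 and 429 bp upstream. The actin part had 8 of 28: ACTG1 (γ-actin), ENAH, TES, TRIP6, the myosin light chains MYL12A and MYL12B, RDX (radixin) and SVIL (supervillin). TES, which encodes the focal adhesion protein testin, had the most, with 5, the widest 845 bp in replicate 1 and 622 bp in replicate 2 (chr7:115858082-115858925). MYL12A and MYL12B, which are neighbors, each had a region at the start of the gene, 169 and 23 bp downstream. The keratin part had 1 of 5, KRT23, with a region 808 and 1003 bp wide (chr17:39107220-39108026). So among the keratin genes outside the list, all of them keratins, the count was 1 of 5, beside 4 of 5 within it. The count within the list includes PLEC, a linker and not a keratin, and the adjacent KRT8 and KRT18, so the sets are unlike. ACTB, encoding β-actin, had a replicate 2 peak only.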

How the data were processed

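APC ChIP-seq peaks of 2 HCT-116 replicates were analysed. The authors aligned reads to hg19 with BWA, called peaks in each replicate against its own input with MACS2, chose a score threshold that retained their control loci AXIN2, DKK1 and MYC, and annotated them with RefGene. Tool versions: not given in the sources used here. Positions and TSS distances are those the authors deposited, in bp. In each of the 14656 rows their score column was the end less the start, plus 2, and it was read as the peak width. A deposited table of distances between replicates was not used, and distances were recomputed from peak centres.

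The 38 members, their groups, the 58 related genes and the motifs were chosen with earlier results of these data known. Every member with a peak and the related genes with a shared region were named, except 1 related gene that is not reported here, and sequences were shown for the widest shared region within 5 kb of a TSS and the widest farther away in each group and for those with AP-1 and TCF matches, none from chromosome 8. Gene names were matched through RefSeq symbols (4945 of 5031 protein-coding names) to 19254 protein-coding genes present in RefSeq and GENCODE 44 on GRCh37, the same build. All 14656 peaks lay within its chromosomes. Intervals are exact (Clopper-Pearson, 95%) and take in counting error alone. No test was made, and p-values are absent. Motifs were full matches of the words given (the CArG box by its consensus) on both strands, counted once per position, and words that overlapped counted for each motif. Sharing and motif search were tested on simulated data. Python 3.11.15, pandas 2.3.3 and scipy 1.17.1 were used. Alternatives were sharing limits of 200 and 1000 bp, an overlap of 1 bp, the wider 50% of each list, peaks within 10 kb of the TSS, gene bodies, and each replicate alone.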

Additional observations from a re-analysis of the deposited data

How the results depend on the processing

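No paired analysis was possible because the inputs entered only through the peak calling and no test was made. The counts of genes with a shared region were the same with a limit of 1000 bp and with an overlap of 1 bp, at 9 members, 3 junction, 2 actin-linker and 4 keratin genes. With a limit of 200 bp the members fell to 6, with KRT8, KRT20 and MYH9 lost, which left 1 actin-linker and 2 keratin genes, while the share over all protein-coding genes moved from 11.4% to 10.8%. With the wider 50% of each list 4 members remained (PLEC, KRT20, TJP1 and CTTN), that is 1 junction, 1 actin-linker and 2 keratin genes, and 9 of the related genes in place of 16. Within 10 kb of the TSS 4 members remained (CLDN7, CTTN, KRT18 and PLEC), again 1, 1 and 2 by group. By gene body in place of the assigned name, TJP1 was kept and CLDN3, KRT20 and MYH9 were lost. Over all protein-coding genes the wider 50% gave 6.40% and the 10 kb limit 7.76%. Counting any peak of 1 replicate gave 14 to 16 members, 4 to 6 junction, 4 to 7 actin-linker and 4 to 5 keratin genes. The shares of shared peaks, of regions near a TSS and of AP-1 matches stayed within the 95% intervals of the reported values. In the wider 50% of each list, however, the share of replicate 2 member peaks that were shared fell from 47.8% to 29.4% (5 of 17), while that of all peaks rose from 45.5% to 50.9%, so the members stood below all peaks there and above them in the full list. Both lists were cut in this setting, so a wide replicate 2 peak was no longer shared when its replicate 1 partner was in the narrower part. This was so at CLDN3, KRT18, MYH9 and intron 5 of PLEC. Why these replicate 1 peaks were narrow was not tested, and no interval was computed for the 5 of 17. Unknown depth limits every absence reported here.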
